A study of Mus musculus with 12 samples.

Results

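Endocytic receptors, the clathrin coat and caveolae are machinery of the cell surface by which stromal cells can take up a protein antigen. The genes described here were chosen by their symbols, by a rule that uses no measured value but with earlier results of these data known. Their coordinates below are those of the whole gene in GRCm38. They are the receptors Lrp1, Mrc2, Scarb1, Scarb2 and Cd36, the coat components Cltc and Ap2a1, the caveolar genes Cav1 and Cavin1, and the fission enzyme gene Dnm2. They make up 10 of the 55487 genes in the deposited count table, and 10 of 10 passed the filter on low counts that left 11314 protein-coding genes for testing. RNA was sequenced from primary mesenchymal stromal cells (MSCs) of the bone marrow of wild-type C57BL/6 mice in 3 groups of 4 samples. Control MSCs received neither agent, A1-treated MSCs received 50 μM A1 for 6 h, and A1 + OVA-treated MSCs received 50 μM A1 and 1 mg/ml ovalbumin (OVA) for 6 h. A1 is a variant of the Accum molecule in which the bile acid cholic acid is joined to the nuclear localization signal of hnRNPA1, and OVA is an egg white protein used as a model antigen. All groups grew in serum-containing AMEM with penicillin and streptomycin, and the labels also mention insulin, with no readable amount, in the medium of the OVA condition. No group received OVA alone, so OVA was measured only on top of A1. The study's methods describe MSCs expanded over several passages from the femurs of young adult female mice. Nothing in the labels says that the samples of a group came from separate cultures or animals, so that p-values measure only the spread between these samples, which may be technical. The study asks how A1 leads MSCs to take up OVA and present it to T cells, and the comparisons below ask whether transcripts of the uptake machinery differed in level.

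In clathrin-mediated endocytosis, the AP-2 adaptor binds the tails of cargo receptors at the plasma membrane and recruits clathrin, which forms the coat of the pit, and dynamin then cuts the neck of the vesicle. Caveolae are smaller flask-shaped pits of the same membrane, built from caveolins and shaped by a coat of cavins, and they are abundant in stromal, endothelial and fat cells. Receptors of the LDL receptor, mannose receptor and scavenger receptor families select the cargo, such as protease complexes, collagen fragments, lipoproteins and modified lipids.

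The total counts per sample ranged from 15644991 to 16881995 in control MSCs, from 13702348 to 14347870 in A1-treated MSCs and from 14359973 to 16674294 in A1 + OVA-treated MSCs. Levels are given in CPM, the counts relative to library sizes scaled by TMM, as mean ± SD with n = 4. Of 8 MSC markers, summing to between 7455 and 8842 CPM over all samples, Thy1 (CD90) had at most 17 counts in any sample and was not tested, and Nt5e (CD73) had between 7 and 14 counts. Most of the sum came from the collagen genes Col1a1 and Col1a2, at means of 3335 and 4266 CPM in control MSCs. With A1, Cd44 rose by 1.39 on the log2 scale, Pdgfra fell by 0.99 and Col1a2 fell by 0.23. Of the markers of other cells, the fat cell gene Fabp4 was the most abundant, at 63.2 ± 3.5 CPM in control MSCs, above the MSC marker Eng at 9.4 CPM, and the blood cell gene Cd14 had between 120 and 173 counts. Of the other blood cell markers, Tyrobp, Itgam, Adgre1, Ptprc, Fcer1g, Lyz2 and Csf1r had at most 0, 1, 2, 4, 4, 7 and 14 counts. Cd68 had 16 to 31 counts and Mrc1 had 21 to 47. None of 6 endothelial markers exceeded 8 counts. In bulk samples such as these, fewer cells of a type and less RNA per cell cannot be told apart.

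Compared per kb of exon, Cavin1, which encodes the cavin that forms the caveolar coat, had the highest level of the 10 genes in control MSCs, at 137 ± 2.9 CPM per kb. Cltc, the clathrin heavy chain, followed at 84.4 ± 7.32 CPM per kb and Cav1, caveolin-1, at 72.1 ± 1.57 CPM per kb. A middle group held the lysosomal receptor gene Scarb2 at 26.8 ± 1.45 CPM per kb, Lrp1 at 24.5 ± 4.49 CPM per kb, Dnm2 at 20.5 ± 0.658 CPM per kb, Ap2a1 at 20.3 ± 1.36 CPM per kb, Scarb1 at 18.0 ± 0.798 CPM per kb and Mrc2 at 17.5 ± 1.5 CPM per kb. Among these, the SD interval of Lrp1 overlapped those of Scarb2, Dnm2 and Ap2a1. The interval of Ap2a1 also overlapped those of Dnm2 and Mrc2, and the intervals of Scarb1 and Mrc2 overlapped. Cd36 was far below, at 0.747 ± 0.142 CPM per kb. In A1-treated MSCs Scarb2, at 20.4 ± 0.248 CPM per kb, had a mean below those of Lrp1 (25.6 ± 5.69 CPM per kb), whose SD interval contained that of Scarb2, and Ap2a1 (21.2 ± 0.388 CPM per kb), and the intervals of Cltc (80.8 ± 6.78 CPM per kb) and Cav1 (78.7 ± 1.15 CPM per kb) overlapped.

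**Figure D1:**
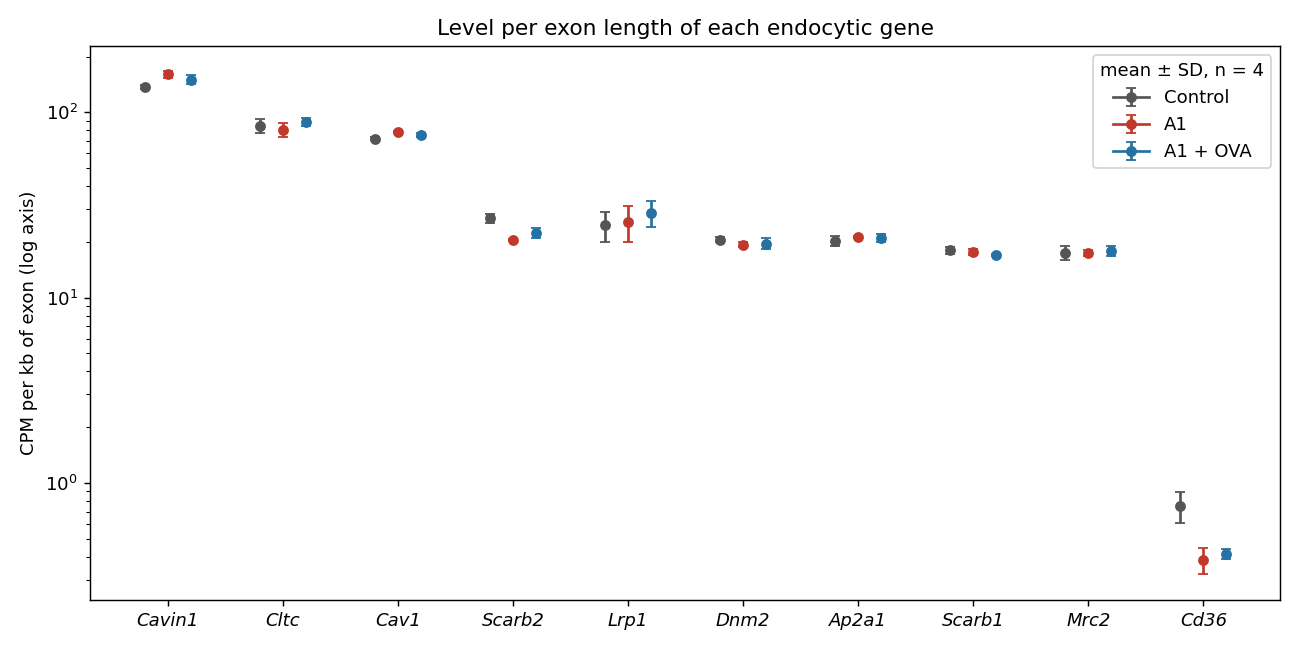
Mean level per kb of exon of the 10 genes in control, A1-treated and A1 + OVA-treated MSCs, on a log axis with bars for the SD (n = 4). Cavin1 is highest at 137 CPM per kb in control MSCs and Cd36 lowest at 0.747 CPM per kb, with the other genes in the same bands in every group.

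With A1, 4 of the 10 genes passed an adjusted p of 0.05 in edgeR's quasi-likelihood test, or 40%, where 62.7% of all tested genes did. Cav1 and Cavin1 rose and Scarb2 and Cd36 fell, so that 2 of 10 were called in each direction, with 31.7% of all genes higher and 31.1% lower. Cd36 was the only gene of the 10 that also changed by at least 0.5 on the log2 scale, which 21% of all genes did. The 4 called genes were also the 4 whose A1-treated and control samples did not overlap, which held for 54.4% of all genes. The median log2 difference of the 10 genes was -0.02, beside -0.0017 for all genes tested, and their median absolute log2 difference was 0.08, beside 0.23 for all genes.

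With A1 + OVA, 4 of the 10 genes passed the test against the same control samples, or 40%, where 57.6% of all genes did. Cavin1 rose, with 29.7% of all genes called higher, and Scarb1, Scarb2 and Cd36 fell, with 27.9% of all genes called lower. Cd36 was again the only gene of the 10 with a change of at least 0.5, which 17.7% of all genes had. Scarb2 and Cd36 were the 2 genes with no overlap between the groups, which held for 49.4% of all genes. The median log2 difference of the 10 genes was 0.04 with A1 + OVA, beside 0.0036 for all genes, and the median absolute difference was 0.08, beside 0.20.

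**Figure D2:**
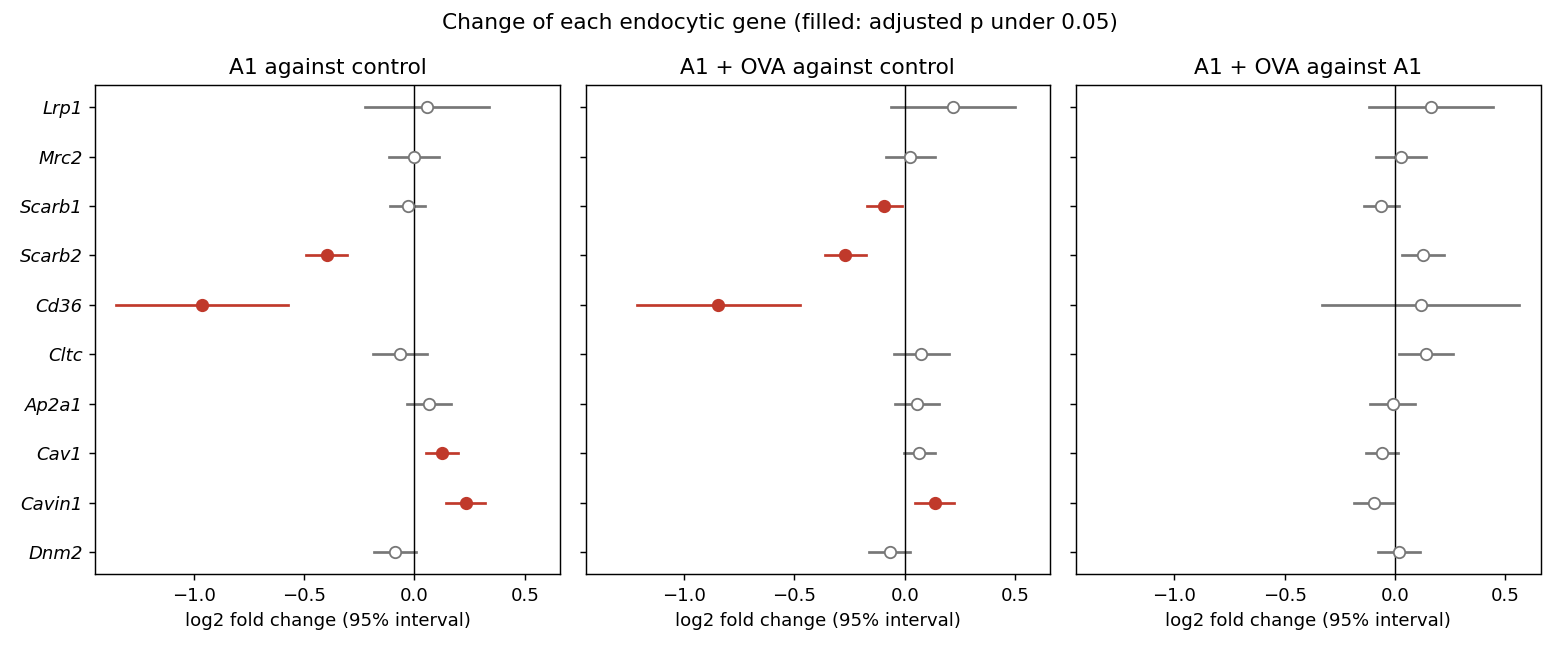
Log2 fold change of each gene with its 95% interval for A1 against control, A1 + OVA against control and A1 + OVA against A1, with filled points where the edgeR adjusted p was under 0.05. Cd36 and Scarb2 lie to the left in both comparisons with control, Cavin1 lies to the right in both, and no point is filled in the comparison of A1 + OVA with A1.

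Cd36 (ENSMUSG00000002944, chr5:17781690-17888801, minus strand) encodes a scavenger receptor that takes up oxidized lipoproteins and long-chain fatty acids. Its level was 2.41, 3.01, 2.10 and 3.20 CPM in the 4 control samples, 1.37, 1.45, 1.07 and 1.60 CPM in the A1-treated samples, and 1.38, 1.58, 1.45 and 1.54 CPM in the A1 + OVA-treated samples. Every treated sample lay below every control sample. Cd36 fell by 0.96 on the log2 scale with A1 (SE 0.187, edgeR adjusted p = 0.000142), a change of -48.6% with a 95% interval from -60.8% to -32.7%. With A1 + OVA it fell by 0.84 (SE 0.178, edgeR adjusted p = 0.000361), a change of -44.3%. These values rest on between 14 and 51 counts per sample, and the interval is the widest of the 10 genes in all 3 comparisons. Cd36 is also abundant in fat cells, and of 5 adipocyte markers Adipoq (-1.71) and Cidec (-0.78) fell with A1, both at low counts, Fabp4 was not called (log2 difference 0.02), Plin1 had at most 11 counts and Lep had 0. With A1 + OVA, Adipoq (-1.67) and Cidec (-0.54) fell and Fabp4 rose (0.17, edgeR adjusted p = 0.011). The summed level of these 5 markers ranged from 64.2 to 70.5 CPM in control MSCs, from 62.7 to 71.1 CPM in A1-treated MSCs and from 66.0 to 78.9 CPM in A1 + OVA-treated MSCs. Nearly all of it was Fabp4, at means of 63.2, 64.0 and 71.3 CPM in these groups, so that the sum hardly reflects Adipoq and Cidec. The part of these markers in the difference of Cd36 was not tested.

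The stretch before the RefSeq start of Cd36 is shown because Cd36 had the largest difference of the 10 genes. This start lies inside the gene as given above, downstream of its outermost annotated start, and the stretch before it overlaps no annotated exon of Cd36. RefSeq promoters were found for 8 of the 10 genes, and the 250 bases before the RefSeq start were searched on both strands for GGGCGG (GC box), CACGTG (E-box), TGANTCA (AP-1 motif) and TGATGNAA (the core of the amino acid response element). In the sequence of Cd36 (GRCm38.p6, chr5:17835897-17836146, minus strand) the capitals mark 2 GC boxes, at -109 to -104 and at -93 to -88 from the start, and no motif overlapped another.
Cd36: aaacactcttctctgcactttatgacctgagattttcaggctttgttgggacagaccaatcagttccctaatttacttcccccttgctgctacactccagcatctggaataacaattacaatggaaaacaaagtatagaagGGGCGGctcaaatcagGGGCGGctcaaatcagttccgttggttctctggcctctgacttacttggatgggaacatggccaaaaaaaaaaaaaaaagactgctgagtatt
A GC box was present in 7 of the 8 promoters searched (Cltc had 0), and in 32.7% of all 32851 RefSeq promoters. For Scarb2 and Cavin1 all 250 bases searched lie in annotated exons of the gene itself. The promoters compared were not matched for GC content, and enrichment was not tested. The E-box, the AP-1 motif and the response element core were present in 0 of the 8, and in 6.02%, 6.75% and 3.45% of all promoters.

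Scarb2 (ENSMUSG00000029426, chr5:92441314-92506833, minus strand) encodes LIMP-2, a membrane protein of lysosomes that carries the enzyme beta-glucocerebrosidase there, and is the lysosomal member of the CD36 family. The control samples had 163, 182, 163 and 166 CPM, the A1-treated samples 128, 129, 126 and 129 CPM, and the A1 + OVA-treated samples 150.4, 144, 132 and 134 CPM. The 3 groups did not overlap, with the A1 + OVA-treated samples between the others. With A1, Scarb2 fell by 0.40 on the log2 scale (SE 0.0453, edgeR adjusted p = 1.31e-07), a change of -24% with a 95% interval from -28.8% to -18.9%. Scarb2 fell by 0.27 with A1 + OVA (SE 0.0447, edgeR adjusted p = 2.63e-05), a change of -17% with an interval from -22.2% to -11.4%. The control sample at 182 CPM stood apart from the others, and without it the log2 differences were -0.36 and -0.23.

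Scarb1 (ENSMUSG00000037936, chr5:125277087-125341094, minus strand) encodes SR-B1, the receptor that takes cholesteryl esters from high-density lipoprotein, and is another member of the CD36 family. It had 159, 143, 154 and 157 CPM in control MSCs, 155, 144, 152 and 148 CPM in A1-treated MSCs and 142, 142, 146 and 145 CPM in A1 + OVA-treated MSCs. The groups overlapped, since a control sample at 143 CPM lay among the treated ones. Scarb1 was not called with A1 (log2 difference -0.03, 95% interval from -0.11 to 0.05) and fell by 0.09 with A1 + OVA (SE 0.0384, edgeR adjusted p = 0.0465). That call was lost when control sample 1, 3 or 4 or any A1 + OVA-treated sample was left out (edgeR adjusted p between 0.0586 and 0.12), without the filter on low counts (0.0621) and with only the groups compared in the fit (0.0508). The members of the CD36 family thus differed in size of change, from a log2 difference of -0.03 for Scarb1 to -0.96 for Cd36 with A1, and the differences between the genes were not tested.

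**Figure D3:**
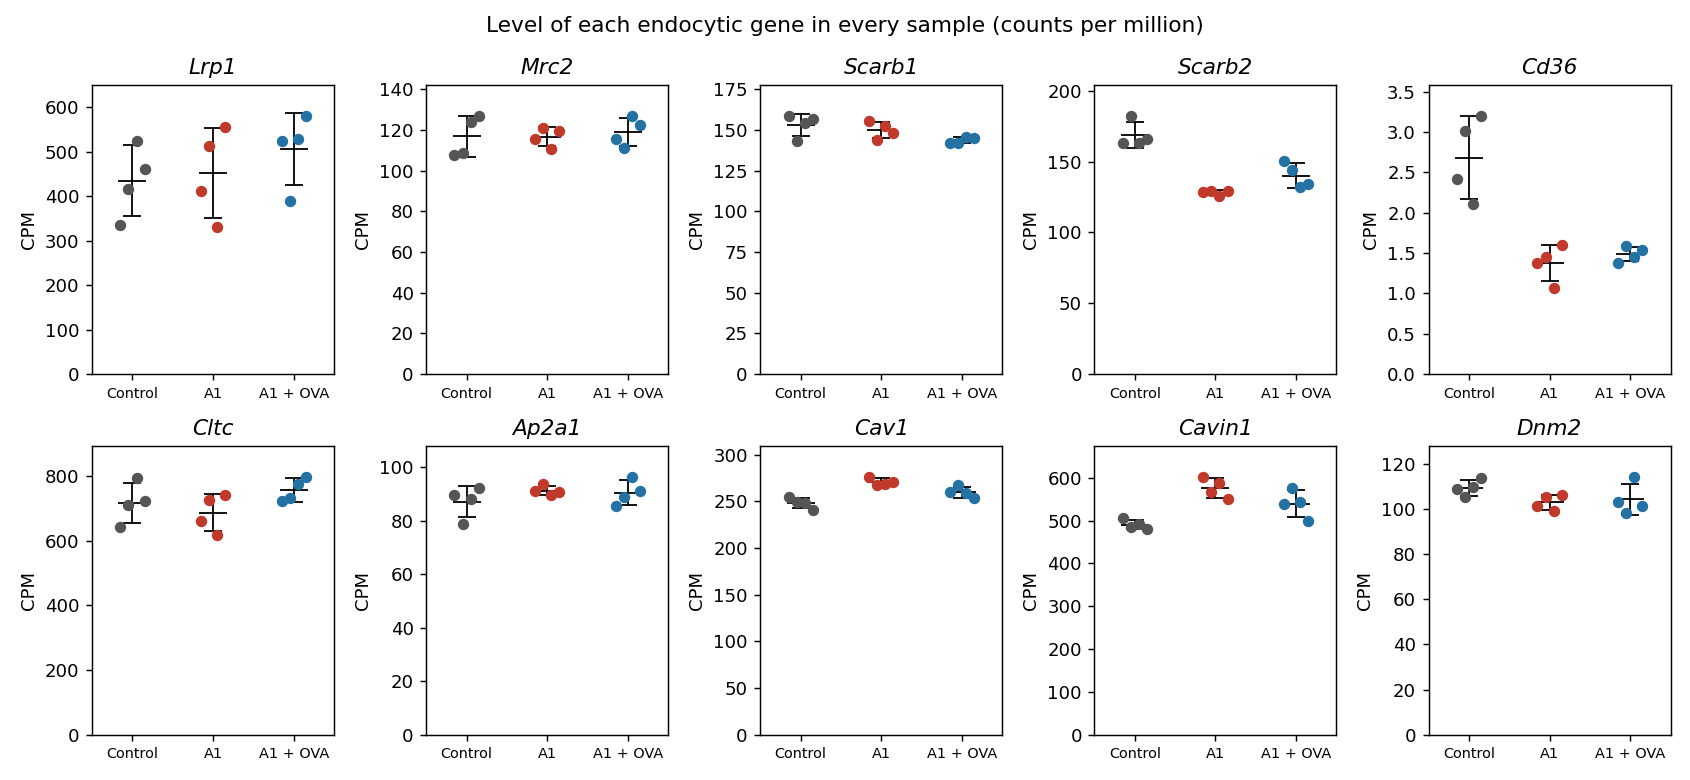
Level of each of the 10 genes in CPM in the 12 samples, with horizontal marks and bars for the mean and SD of each group (n = 4) and axes that start at 0. The treated samples of Cd36 and Scarb2 lie below all control samples, the A1-treated samples of Cav1 and Cavin1 lie above all control samples, and the samples of Lrp1 spread from 331 to 581 CPM.

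Lrp1 (ENSMUSG00000040249, chr10:127538161-127621148, minus strand) encodes a very large receptor of the LDL receptor family that clears proteases, their inhibitors and many other ligands from the cell surface. Lrp1 had 335, 418, 524 and 462 CPM in control MSCs, 413, 512, 331 and 555 CPM in A1-treated MSCs, and 525, 389.7, 529 and 581 CPM in A1 + OVA-treated MSCs. Within each group the highest sample was well above the lowest, and the groups overlapped widely. Lrp1 was not called with A1 (log2 difference 0.06, 95% interval from -0.22 to 0.34, edgeR adjusted p = 0.728) or with A1 + OVA (0.22, interval from -0.06 to 0.50, edgeR adjusted p = 0.172). The second comparison moved with single choices. The difference was 0.33 without A1 + OVA sample 2 (edgeR adjusted p = 0.0377), and its adjusted p was 0.0203 without the filter on low counts.

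The within-group SD of Lrp1 was 0.289 on the log2 scale, larger than that of 100% of the 374 genes within 0.5 log2 CPM of its level. Its exon model, at 17717 bases, is the longest of the 10. In 10 of the 12 samples Lrp1 lay on the same side of its group mean as the median of the 311 tested genes with exon models over 15000 bases, and Cltc (11 of 12), Mrc2 (11 of 12) and Dnm2 (10 of 12) did so too. Cav1 and Cavin1, with exon models of 3444 and 3587 bases, did so in 2 of 12. Of the other genes, Ap2a1 (4300 bases) did so in 9, Cd36 (3590) in 8, Scarb1 (8500) in 6 and Scarb2 (6285) in 5. Exon length alone thus did not order these counts, since Cltc has an exon model of 8499 bases. These 12 points share libraries and scaling, so that the counts describe the samples only. An alternative added after the data were seen used as covariate the median deviation of the long genes in each sample from their group means. With it, the log2 difference of Lrp1 between A1 + OVA and control was 0.21 (edgeR adjusted p = 0.00495). The within-group SD of Lrp1 after removal of the slope was 0.131. Being centred within each group, the covariate could not adjust for a difference of long genes between groups. Between groups, the median log2 difference of long genes was -0.08 with A1 and -0.03 with A1 + OVA, while that of the 1258 genes with exon models of at most 2000 bases was 0.06 and 0.05.

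**Figure D4:**
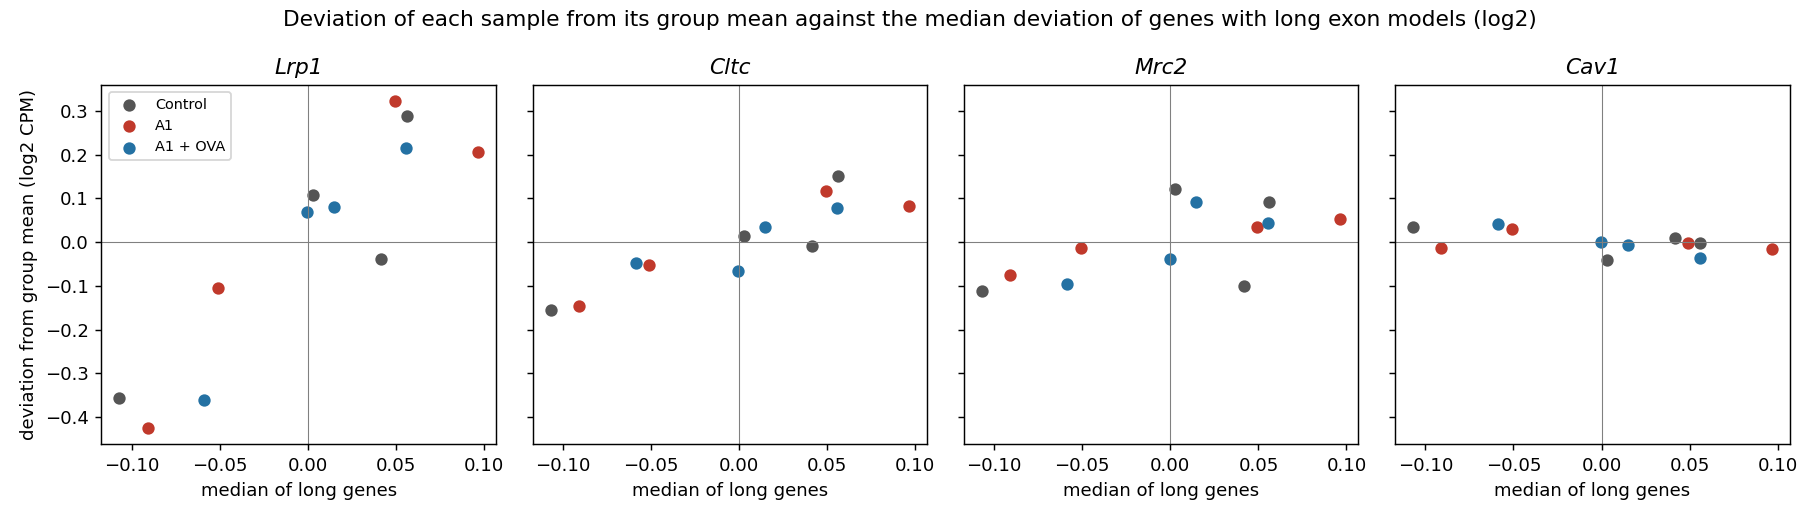
Deviation of each of the 12 samples from its group mean in log2 CPM, for Lrp1, Cltc, Mrc2 and Cav1, against the median deviation of the 311 genes with exon models over 15000 bases. Lrp1 runs from -0.42 to 0.32 and its points rise from left to right, while the points of Cav1 stay between -0.04 and 0.04.

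Mrc2 (ENSMUSG00000020695, chr11:105292643-105351139, plus strand) encodes Endo180, a receptor of the mannose receptor family that internalizes collagen fragments and is typical of stromal cells. It had 108, 109, 124 and 127 CPM in control MSCs, 116, 121, 111 and 119.5 CPM with A1, and 116, 111, 127 and 122.5 CPM with A1 + OVA. The treated samples lay within the range of the control samples. Mrc2 was not called in either comparison, with log2 differences of -0.0015 (95% interval from -0.11 to 0.11) with A1 and 0.03 (interval from -0.09 to 0.14) with A1 + OVA.

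Cltc (ENSMUSG00000047126, chr11:86694351-86757565, minus strand), the heavy chain that forms the clathrin lattice, had 642, 711, 794 and 722.5 CPM in control MSCs, 659.7, 725, 618 and 742 CPM in A1-treated MSCs, and 722, 731, 774 and 798 CPM in A1 + OVA-treated MSCs. All groups overlapped. Its log2 difference was -0.06 with A1 (95% interval from -0.19 to 0.06, edgeR adjusted p = 0.359) and 0.08 with A1 + OVA (interval from -0.05 to 0.20, edgeR adjusted p = 0.281). Ap2a1 (ENSMUSG00000060279, chr7:44900373-44929496, minus strand), an alpha subunit of the AP-2 adaptor, had 89.7, 78.7, 88.2 and 92.1 CPM in control MSCs, 91.2, 93.7, 89.8 and 90.7 CPM with A1, and 85.7, 89.0, 96.5 and 91.2 CPM with A1 + OVA. Its log2 differences of 0.07 with A1 (interval from -0.03 to 0.17) and 0.06 with A1 + OVA (interval from -0.04 to 0.16) were not called. The gene overlaps Fuz on the opposite strand, which had at most 83 counts in a sample.

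Dnm2 (ENSMUSG00000033335, chr9:21424908-21507759, plus strand), the dynamin found in most cell types, had 109, 105, 109.6 and 114 CPM in control MSCs, 101, 105, 99.2 and 106 CPM with A1, and 103, 98.2, 114 and 101 CPM with A1 + OVA. The groups overlapped. Dnm2, at 1299 to 1813 counts per sample, overlaps Tmed1 on the opposite strand, which had at most 377 counts. For Dnm2, the log2 difference of -0.09 with A1 (95% interval from -0.18 to 0.01) was not called on TMM scaling (edgeR adjusted p = 0.102) but was called on upper-quartile scaling, at -0.12 (edgeR adjusted p = 0.0305). With A1 + OVA the difference was -0.07 (interval from -0.16 to 0.02, edgeR adjusted p = 0.2), and without A1 + OVA sample 3 it was -0.11 (edgeR adjusted p = 0.0259). In percent, the intervals with A1 ran from -12.1% to 4.18% for Cltc, from -2.25% to 12.3% for Ap2a1 and from -11.8% to 0.534% for Dnm2.

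Cavin1 (ENSMUSG00000004044, chr11:100956733-100970887, minus strand) encodes the cavin that all caveolae require. It had 505, 485, 491 and 481 CPM in control MSCs, 602, 566, 587 and 550.1 CPM in A1-treated MSCs, and 539, 575, 544 and 498 CPM in A1 + OVA-treated MSCs. Every A1-treated sample lay above every control sample, and with A1 + OVA the lowest sample lay within the control range. Cavin1 rose by 0.23 on the log2 scale with A1 (SE 0.0423, edgeR adjusted p = 6.66e-05), a change of 17.5% with a 95% interval from 10.5% to 24.8%. It rose by 0.14 with A1 + OVA (SE 0.0422, edgeR adjusted p = 0.00907), a change of 9.86%.

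Cav1 (ENSMUSG00000007655, chr6:17306335-17341452, plus strand) encodes caveolin-1, the main structural protein of caveolae outside muscle. Its level was 254, 249.7, 248 and 241 CPM in control MSCs, 276.5, 268.1, 268.2 and 270.6 CPM with A1, and 260.1, 267.6, 259 and 253 CPM with A1 + OVA. The A1-treated samples lay above all samples of both other groups. Cav1 rose by 0.13 with A1 (SE 0.0339, edgeR adjusted p = 0.0029), a change of 9.11% with an interval from 3.9% to 14.6%, and was not called with A1 + OVA (0.07, interval from -0.0037 to 0.14, edgeR adjusted p = 0.0978). Its within-group SD of 0.0287 was low, with 2.87% of the 731 genes at a like level having a smaller SD. The sequence before its start is shown because it is the other called gene whose upstream stretch holds no exon of its own gene in the annotation, unlike those of Scarb2 and Cavin1. In the sequence of Cav1 (GRCm38.p6, chr6:17306085-17306334, plus strand) the capitals mark 1 GC box, read on the other strand, at -118 to -113 from the start.
Cav1: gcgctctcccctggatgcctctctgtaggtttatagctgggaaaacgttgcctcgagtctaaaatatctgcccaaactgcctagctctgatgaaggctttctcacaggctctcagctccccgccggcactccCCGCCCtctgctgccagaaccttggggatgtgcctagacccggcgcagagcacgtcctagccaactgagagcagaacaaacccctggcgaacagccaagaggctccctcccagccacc
The GC content was 59.6% in this stretch and 43.2% in that of Cd36.

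Between A1 + OVA and A1, which asks what OVA added in the presence of A1, 0 of the 10 genes passed in edgeR's quasi-likelihood test, where 12.9% of all genes did, 6.05% higher and 6.81% lower, and 1.2% by at least 0.5. DESeq2 also called 0. The samples of Scarb2 and Cav1 did not overlap between these groups, which held for 18.1% of all genes. Scarb2 was higher with OVA by 0.13 (95% interval from 0.03 to 0.22, edgeR adjusted p = 0.0697) and Cav1 was lower by a log2 difference of -0.06 (interval from -0.13 to 0.01, edgeR adjusted p = 0.272). Cltc had a log2 difference of 0.14 (interval from 0.02 to 0.26, edgeR adjusted p = 0.125) and Cavin1 of -0.10 (interval from -0.18 to -0.0085, edgeR adjusted p = 0.14). For Cd36 the difference was 0.12, with an interval from -0.33 to 0.56, and for Lrp1 it was 0.16, with an interval from -0.12 to 0.44. The median of the 10 log2 differences was 0.02, beside 0.0057 for all genes, and their median absolute difference was 0.08, beside 0.09. Scarb2 was called without control sample 2, without A1 + OVA sample 3, on upper-quartile scaling and with only the groups compared in the fit (edgeR adjusted p between 0.0394 and 0.0493), so that its side of the threshold depended on these choices.

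The genes whose pattern over the 12 samples was most like that of Cd36, by the root mean square difference of centred log2 CPM, were Rnf167 (0.131), Ift80 (0.145) and Zfp354c (0.151). Rnf167 encodes an E3 ubiquitin ligase of endosomes and lysosomes, and Ift80 a component of intraflagellar transport. Those most like Scarb2 were Smurf2 (0.0386), an E3 ubiquitin ligase of TGF-beta signaling, Colec12 (0.0406), a scavenger receptor with a collagen stalk, and Dram1 (0.0406), a lysosomal membrane protein linked to autophagy. With A1 and A1 + OVA, the log2 differences were -0.37 and -0.23 for Smurf2, -0.42 and -0.31 for Colec12, and -0.43 and -0.27 for Dram1. Scarb2 had -0.40 and -0.27. The closeness of these values follows from how the genes were picked, over the same 12 samples.

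Another 102 genes of protein uptake were grouped into 8 lists, and 82 of them were tested. With A1, 58 of the 82 were called in edgeR's test (28 higher, 30 lower), or 70.7%, and with A1 + OVA 56 were called (30 higher, 26 lower), or 68.3%, beside the 62.7% and 57.6% of all genes. On upper-quartile scaling 51 were called with A1 + OVA, 23 higher and 28 lower, so that the direction with more calls turned. The median log2 difference over the 82 genes was 0.02 with A1 and 0.0007 with A1 + OVA. The counts of each list below stand beside the same shares of all genes. These were 31.7% higher and 31.1% lower with A1, and 29.7% higher and 27.9% lower with A1 + OVA.

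Among 14 genes of the LDL receptor family other than Lrp1, 10 were tested, of which 2 rose and 5 fell with A1. Lrp10, a small receptor of the trans-Golgi and endosomes, rose from 96.3 ± 9.18 to 169 ± 8.67 CPM with A1 (log2 difference 0.81). Lrp6, a Wnt co-receptor, fell from 312 ± 14.1 to 201 ± 9.62 CPM (-0.63), and Lrp4, the agrin receptor, fell from 9.54 ± 0.603 to 7.29 ± 1.21 CPM (-0.38). With A1 + OVA the corresponding log2 differences were 0.81, -0.59 and -0.45, and 4 of the 10 rose and 4 fell. Vldlr, Lrp1b and Lrp2 had at most 2 counts in any sample and were not tested.

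Of 14 scavenger and mannose receptors beyond the 10 genes, 7 were tested, and with A1 3 rose and 2 fell. Mrc1, the macrophage mannose receptor CD206, had 1.48 ± 0.199 CPM in control MSCs, 3.01 ± 0.442 CPM with A1 (log2 difference 1.01, called) and 1.94 ± 0.354 CPM with A1 + OVA (0.38, not called). It also belongs to the blood cell markers, whose 10 genes summed to between 10.9 and 11.9 CPM in control MSCs, 15.5 to 17.9 CPM with A1 and 12.9 to 15.5 CPM with A1 + OVA, and of whose 3 tested genes Mrc1 and Cd14 (0.57) rose with A1 and Cd68 was not called (-0.10, edgeR adjusted p = 0.694). Lyz2, which was not tested, had 2 to 7 counts in control MSCs and 0 to 2 with A1. Colec12 fell from 486 ± 20 to 363 ± 8.39 CPM with A1 (-0.42), and Scara3, induced by oxidative stress, fell from 8.27 ± 0.71 to 6.33 ± 0.936 CPM (-0.39). Ly75 and Scarf2, the other genes of this list called higher with A1, were named after their values were seen. Ly75 rose from 296.5 ± 26.3 to 382.7 ± 24.2 CPM (0.37) and Scarf2 from 62.15 ± 5.88 to 78.15 ± 4.59 CPM (0.33). With A1 + OVA their log2 differences were 0.59 and 0.18, both called. Msr1, Marco and Cd163, the scavenger receptors of macrophages, had 0 counts in all 12 samples. A count of 0 allows up to 3 counts per library.

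In the list of other cargo receptors, with 6 of 7 genes tested, 2 rose and 3 fell with A1. Tfrc, the transferrin receptor and classic cargo of clathrin-coated pits, rose from 123 ± 6.47 CPM to 340.2 ± 14.5 CPM with A1 (1.46) and 310.2 ± 5.6 CPM with A1 + OVA (1.33). Fcgrt, the neonatal Fc receptor that recycles IgG and albumin, fell from 53.2 ± 5.39 to 33.5 ± 1.2 CPM (-0.67) with A1 and to 36.8 ± 2.87 CPM (-0.53) with A1 + OVA. Sort1, sortilin, was at 1.64 ± 0.155 CPM in control MSCs and 0.670 ± 0.19 CPM with A1 (-1.28, SE 0.286, called). This is a low level, with 0.43 to 0.87 CPM in the A1-treated samples.

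The remaining subunits of clathrin and AP-2, 6 of 6 tested, had 1 gene higher and 1 lower with A1. They were Cltb (0.16) and Clta (-0.12), the light chains of clathrin, which went in opposite directions. With A1 + OVA, Cltb rose by 0.28 and Clta was not called (-0.05). Of 26 clathrin adaptors and accessory proteins, 22 were tested, with 8 higher and 7 lower with A1. Hip1r, which links coated pits to actin, rose from 11.7 ± 0.625 to 28.2 ± 1.06 CPM (1.26), and Tnk2, a kinase that binds clathrin, rose from 108 ± 6.2 to 205 ± 5.63 CPM (0.92). Arrb1, beta-arrestin-1, fell from 42.2 ± 2.07 to 28.3 ± 1.86 CPM (-0.57).

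Of 14 dynamins and membrane-bending BAR domain proteins other than Dnm2, 11 were tested, with 6 higher and 4 lower with A1. Snx9, which recruits dynamin to coated pits, rose from 247 ± 1.5 to 379.6 ± 5.73 CPM (0.62), and Sh3gl3, an endophilin, rose from 1.48 ± 0.365 to 2.42 ± 0.692 CPM (0.71). At this low level the A1-treated and control samples of Sh3gl3 overlapped. Dnm1, the neuronal dynamin, fell from 10.5 ± 1.72 to 6.28 ± 0.343 CPM (-0.74).

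Among the other caveolins, cavins, and EHD and pacsin proteins, 10 of 11 were tested and 10 of 10 were called with A1, 5 higher and 5 lower, beside the 62.7% of all genes called, 31.7% higher and 31.1% lower. Cavin2, which shapes caveolae together with Cavin1, fell from 106 ± 5.33 to 64.0 ± 2.38 CPM (-0.73), while Cavin4, the muscle cavin, rose from 4.81 ± 0.274 to 11.3 ± 1.44 CPM (1.23). Ehd3, an ATPase of recycling endosomes, fell from 12.9 ± 0.327 to 5.37 ± 0.511 CPM (-1.26). Cav2, the partner of caveolin-1, and Cavin3, which were singled out after their values were seen to complete these families, had log2 differences of 0.38 and -0.16 and were called. Cav3, the muscle caveolin, had 0 counts in all samples.

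The last list, of clathrin-independent uptake and macropinocytosis, had 10 of 10 genes tested, with 1 higher and 3 lower with A1. Flot1 (-0.33) and Flot2 (-0.17), the flotillins, and Ankfy1 (-0.21), an effector of early endosomes, fell. With A1 + OVA, Flot1 was not called (-0.09) and Flot2 (-0.18) and Ankfy1 (-0.15) fell. The gene that rose with A1 was Rac1 (0.16), named after its values were seen, and it was not called with A1 + OVA (0.0019).

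**Figure D5:**
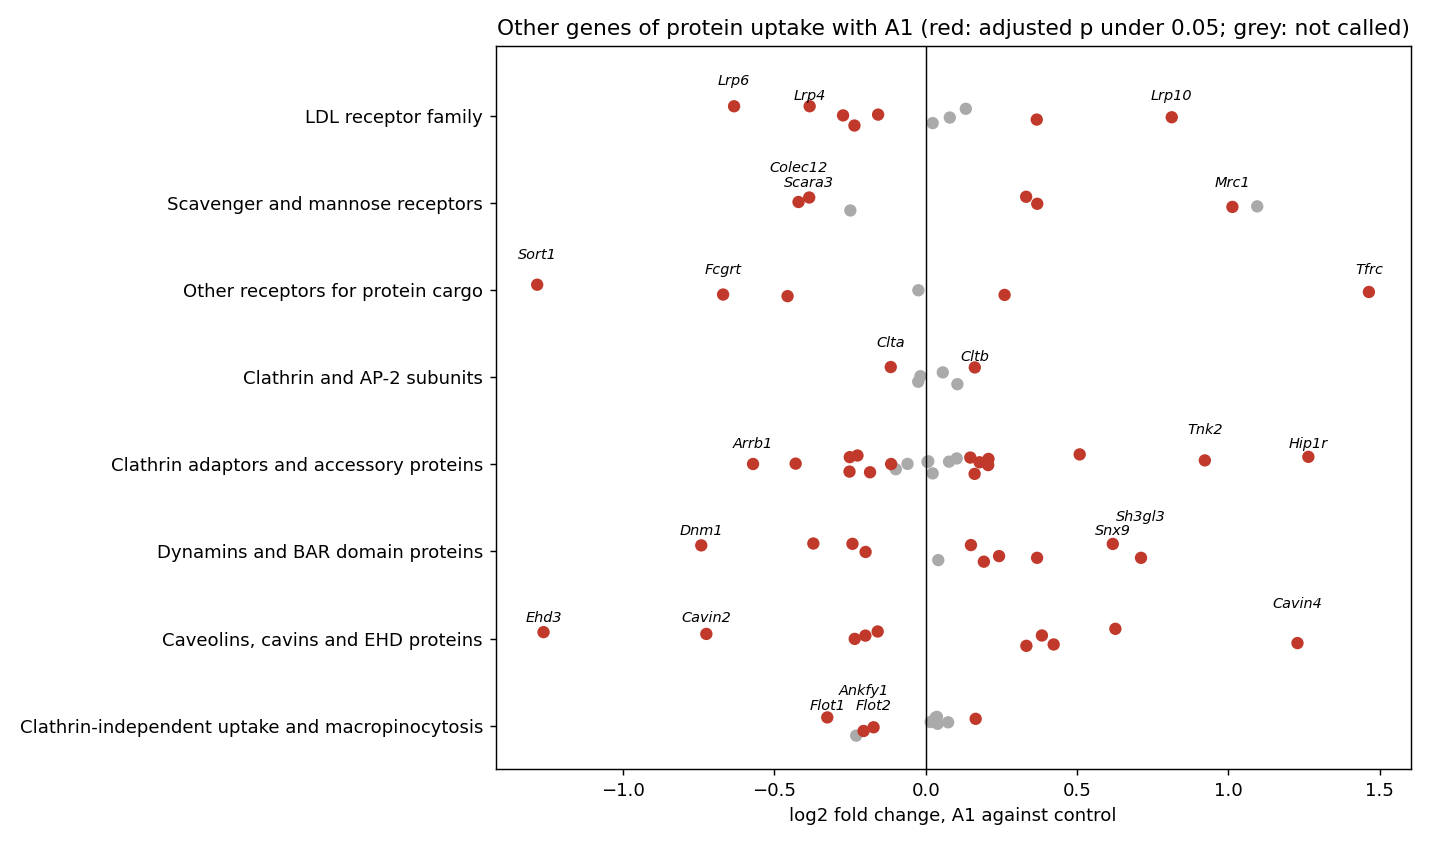
Log2 fold change with A1 against control of the 82 tested genes of 8 uptake lists, a point per gene, in red where the edgeR adjusted p was under 0.05 and with names for the genes given in the text by rule. All 8 lists have red points on both sides of 0, from Sort1 (-1.28, at a low level) and Ehd3 (-1.26) to Hip1r (1.26) and Tfrc (1.46).

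Between A1 + OVA and A1, 14 of the 82 genes were called, 7 higher and 7 lower, or 17.1%, beside 12.9% of all genes. Of the genes named above, Mrc1 (-0.64), Rac1 (-0.16), Tfrc (-0.13) and Snx9 (-0.12) were lower with OVA. Ly75 (0.23), Dnm1 (0.38), Cavin2 (0.17) and Flot1 (0.24) were higher. Picalm, a clathrin assembly protein, rose by 0.18 and Pak1, a kinase of macropinocytosis, fell by 0.23, both named after their values were seen. The count was 6 without A1 + OVA sample 4, 7 without A1 + OVA sample 3, 8 without A1 sample 1, 3 or 4 or A1 + OVA sample 2, and 9 without A1 sample 2.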

How the data were processed

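RNA-seq counts of 12 mouse MSC samples were analysed. Per the labels and the study's methods, the authors prepared stranded poly(A) libraries, aligned paired-end reads to GRCm38 with STAR (version 2.7), counted them per gene with the strand-specific option of featureCounts (version 2.0) and deposited raw counts without normalization.

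Genes were restricted to protein-coding ones by the GENCODE M21 annotation of GRCm38, which holds 99.53% of the identifiers and also gave symbols and exon lengths (the union of exons). They were filtered with filterByExpr and scaled by TMM. The 12 samples entered a single model with 3 groups and no covariate, to which the quasi-likelihood test of edgeR (version 4.0.16, in R 4.3.3) was applied. P-values were adjusted by Benjamini-Hochberg over 11314 genes. Samples were grouped by their titles. CPM are on TMM-scaled totals, and centred log2 CPM use a prior count of 2. The 10 genes and the lists were chosen with earlier results of these data known. From each uptake list, the text names up to 3 genes, those called with A1, at an average log2 CPM of at least 0, that had the largest absolute log2 differences.

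Alternatives were DESeq2 (version 1.42.0), other scalings, other filters, all genes of the table, only the groups compared, the replicate number as a block and each sample left out. No pair of replicates was a copy, since the variance between them was 2.18 to 9.00 times that of counting alone. Promoter sequences are from RefSeq.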

Additional observations from a re-analysis of the deposited data

Results flagged for a closer look

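Of the 30 sets of 4 CPM values (10 genes in 3 groups), 1 had a sample far from the others. Scarb2 in control replicate 2 was at 182.2 CPM, and the nearest control sample was at 166.1 CPM. This gap was 0.842 of the range of the group, above Dixon's 95% critical value for 4 samples, which chance exceeds in about 1 of 20 groups. Without this sample, Scarb2 still fell with A1 (log2 difference -0.36, edgeR adjusted p = 6.71e-07) and with A1 + OVA (-0.23, edgeR adjusted p = 0.000138).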

How the results depend on the processing

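Each of the 30 gene results (10 genes in 3 comparisons) was recomputed under 21 alternatives. Of these values, 609 kept their direction where called and their side of the threshold, 9 lost a call (all Scarb1 with A1 + OVA), 12 gained a call (Lrp1, Scarb2, Cltc and Dnm2) and 0 reversed. With a change of at least 0.5 also required, 1 of the 10 genes (Cd36) was called with A1 and 1 with A1 + OVA, where 4 were called without it. Between A1 + OVA and A1, 0 were called in the main fit. There, 1 gene was called on upper-quartile scaling (Scarb2), 1 without the filter on low counts (Cltc) and 1 with only the groups compared (Scarb2). With the group-centred deviation of long genes as a covariate 2 were called (Scarb2 and Cltc), and from 0 to 1 with a sample left out. Over the left-out samples the called uptake list genes in this comparison ranged from 6 to 16, beside 14 with all samples. The cause of these shifts was not tested, beyond the smaller number of samples. Replicate numbers paired nothing that could be seen: deviations of same-numbered samples had a mean correlation of 0.0215 over 12 pairs (from -0.132 to 0.156, beside -0.183 to 0.175 for other pairs), so that not every sample correlated best with its own number, and with the replicate number as a block 4, 4 and 0 of the 10 genes and 7134, 6580 and 1488 genes were called in the 3 comparisons, beside 7098, 6518 and 1455. The scalings moved the median of all genes by at most 0.03. Depth limits Cd36 most, with 14 to 51 counts. Cltc, Ap2a1, Mrc2 and Dnm2 were not called against control in the main fit. With 4 samples per group, their intervals in these comparisons reached to both sides of 0. Whether more samples would change these results was not tested.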
